A study of Danio rerio with 50 samples.

Results

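The 8 genes described here belong to the machinery that keeps glutathione and other thiols reduced: gclm, gclc, gsr, nfe2l2a, keap1a, keap1b, prdx1 and txn. They were taken by name from the 29033 genes of the count tables, and all 8 were present in the single-cell and the bulk table. The list was chosen by function around gclm, which was selected on its measured level in single cells: the study places it among the genes of olfactory sensory neurons (OSNs) that express a clade A odorant receptor (OR). The levels of gclm in the OR clades and in all cells with an OR are therefore given as a description, without a test. So are all levels in the comparison of clade A with the other clades.

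Glutathione is a small thiol peptide that cells use to remove peroxides and reactive electrophiles. Its first step is catalysed by glutamate-cysteine ligase, an enzyme of a catalytic subunit (gclc) and a modifier subunit (gclm) that raises the activity of the catalytic subunit. Glutathione reductase (gsr) returns oxidised glutathione to the reduced form, while thioredoxin (txn) and peroxiredoxins (prdx1) form a parallel route for reducing protein thiols and peroxides. The transcription factor Nrf2 (nfe2l2a) drives genes of this kind in vertebrates and is held at a low protein level by Keap1, of which zebrafish have the copies keap1a and keap1b. Olfactory neurons are exposed to inhaled or waterborne chemicals, and glutathione enzymes are well known from olfactory epithelium in other vertebrates. RNA levels do not show the activity of Nrf2, which is set largely through the stability of the protein.

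The data were raw read counts of 47 single cells and 3 bulk libraries from zebrafish embryos of the strain Tu/TLF at the end of the second day of development. The single cells had been sorted for red fluorescence from an OMP:RFP transgene, in which the promoter of the olfactory marker protein drives RFP, and captured on a microfluidic chip. The bulk libraries came from pools of sorted cells that carried or111-7:IRES:GAL4, UAS:Citrine and OMP:RFP and were positive for both fluorescent proteins. These cells project their axons to the central zone (CZ) of the olfactory bulb, and or111-7 belongs to clade A. Every sample carried OMP:RFP, and the labels name no treatment. Spike-in RNA of the Fluidigm kit had been added to 14 cells and that of the ERCC mix to 33. Each set was treated as a run of its own, although the study does not state which spike-in went with which run. Cells carry the names of their columns in the table. The labels give no cell class, so each cell was classed by its most abundant OR gene and by gng8 and gap43, which mark immature OSNs. This gave 9 cells of clade A, 10 of clade B, 10 of clade C, 13 mature cells without an OR at 10 CPM or more (CPM, counts scaled to a total of 1e+06 per library), and 5 immature cells. Immature cells were those without an OR that had at least 15 CPM of gng8 and gap43 together. If each set is a run, cells of a class within it share embryos, sort and run, so they are not taken as replicates.

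A cell held 6951519 to 30192554 counts and a bulk library 2651985 to 6250589, and no pair of cells held identical counts. Mature OSN markers were present in most cells that were classed as mature, but 3 of these 42 cells had under 10 CPM of both ompb and gng13b. They are s18930 of clade A, s20565 of clade B and s20534 without an OR, and the 6 mature OSN markers summed to 2.76, 53.4 and 1.62 CPM in them. Numbers of cells with gclm, gclc, gsr or nfe2l2a that rest on these cells are given with and without them. Other numbers, such as those of txn and the sums of marker genes, are given with them. A gene was counted as present in a cell at 100 counts or more, the limit of the study's own filter. Of the other cell types that the sort could hold, macrophage markers did not exceed 0.080 CPM in sum and lens markers 12.6 CPM, whereas globin genes reached 848 CPM and crypt neuron markers 3127 CPM in single cells. The terminal nerve marker gnrh3 was at 2680 CPM in s23545 and 239 CPM in s23543, and at most 3.47 CPM in mature cells. Levels of s23545 and s23543 are given below with the immature class, in which the rule placed them. The part of these cell types in the results below was not tested.

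Of the 8 genes, txn reached 100 counts in 39 of the 47 cells and nfe2l2a in 35. The glutathione genes were each present in a minority, gclm in 15 cells, gsr in 14 and gclc in 12. Of the genes for Keap1, keap1b was present in 11 cells and keap1a in 5, and prdx1 was present in 3. The median over the 7886 genes that reached 100 counts in at least 3 cells was 7 cells. Most cells held 2 or 3 of the 8 genes at this level, 12 and 15 cells respectively, while 7 cells held 4, 7 cells held 5, 2 cells held 1 and 4 cells held 0. For most of the 8 genes presence was close to all-or-none, while levels among the cells with a gene varied widely, for gclm from 14.8 to 2834 CPM. For gclm the highest level among the 32 cells under 100 counts was 3.35 CPM and the lowest among the 15 cells above it was 14.8 CPM. For gclc these values were 2.35 and 20.2 CPM, for nfe2l2a 3.11 and 37.2 CPM, and for keap1a 0.0991 and 35.5 CPM. For keap1b they lay close together, at 4.11 and 6.12 CPM. Only for gsr did these ranges overlap, with 6.33 CPM in s23560, the cell of lowest total count, and 4.94 CPM in s20566, which was above 100 counts.

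The modifier subunit gclm was present in most clade A cells, in no clade B cell and in some clade C cells. In clade A its levels were 2659 CPM in s20545, 2626 in s23574, 530 in s20566, 89.2 in s20599, 42.4 in s23546, 26.9 in s23554, 3.35 in s18928, 0.265 in s23563 and 0.0405 in s18930. Thus 6 of the 9 cells were above 100 counts. These were 3 of 5 cells in the Fluidigm set and 3 of 4 in the ERCC set, and the clade median was 42.4 CPM. No clade B cell exceeded 0.534 CPM, the lowest being at 0.0 CPM and the median at 0.144 CPM, and 0 of 10 reached 100 counts. The reads carry no molecular identifiers, so that counts of a cell are not independent molecules. Clade C was mixed. Its cells had 2834 CPM in s23549, 1628 in s23558, 54.5 in s20544 and 35.8 in s23572, while the other 6 ranged from 0.107 to 3.04 CPM. The highest gclm level of all 47 cells was thus in clade C, and the ranges of clades A and C overlapped over almost their whole length.

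Outside the OR clades, gclm was present in 4 of 13 mature cells without an OR, at 1362, 734, 316 and 145 CPM, while the median of the class was 0.288 CPM. Among the 5 immature cells it was 14.8 CPM in s23545 and at most 0.287 CPM in the others. When counts were summed over the cells of a clade, its level in clade A was 653 CPM for the Fluidigm set and 745 CPM for the ERCC set. The sums of clade B had 0.175 and 0.168 CPM. Those of clade C had 24.2 and 741 CPM, so that clade C was close to clade A in the ERCC set and far below it in the Fluidigm set, where clade C had 3 cells. A single cell, s20545, held 48.7% of all gclm counts of clade A, and s23549 held 71.6% of those of clade C. Without s18930, which lacks mature OSN markers, 6 of 8 clade A cells were above 100 counts and the clade median was 65.8 CPM.

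**Figure D1:**
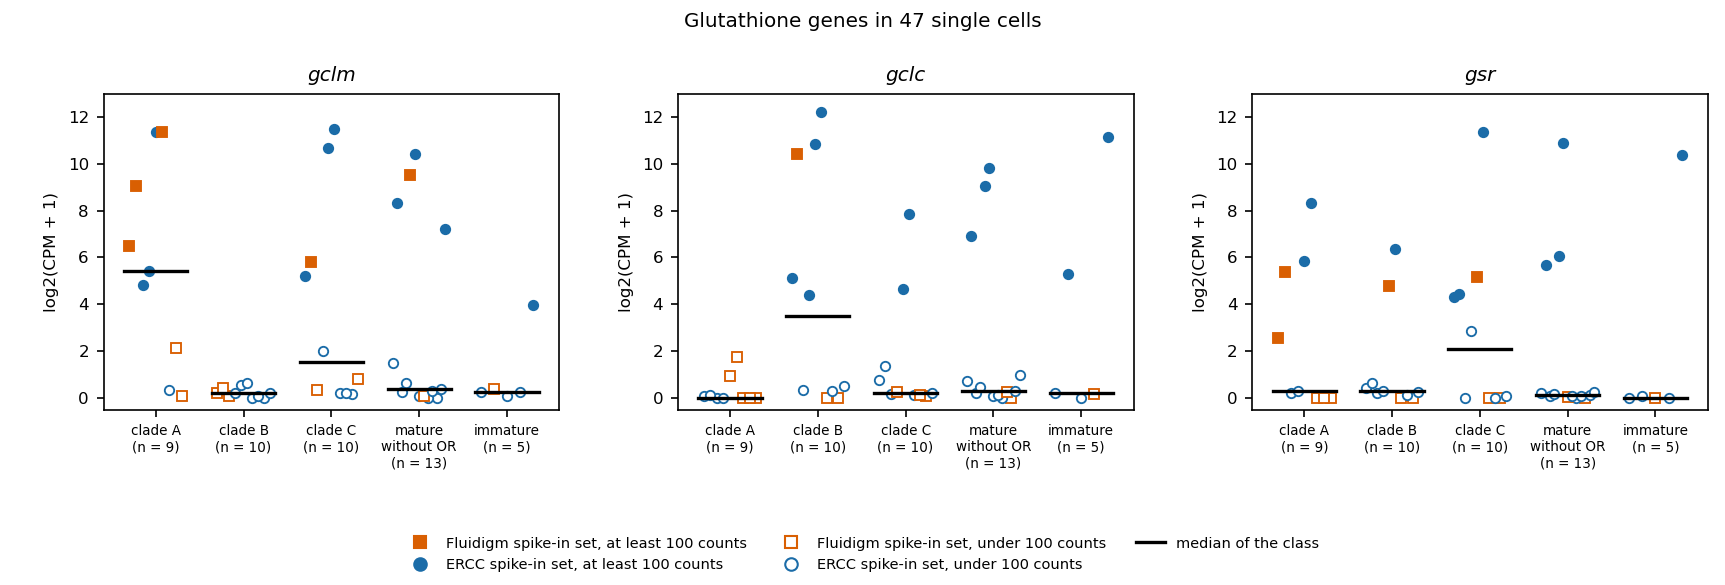
Levels of gclm, gclc and gsr as log2(CPM + 1) in each of 47 cells (points), by class on the horizontal axis; squares are cells of the Fluidigm set, circles cells of the ERCC set, filled points had at least 100 counts and bars are class medians. For gclm no clade B cell exceeded 0.534 CPM while 6 of 9 clade A cells had filled points, and for gclc no clade A cell exceeded 2.35 CPM while 5 of 10 clade B cells had filled points.

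The catalytic subunit gclc had the opposite distribution over clades A and B. None of the 9 clade A cells reached 100 counts, and their highest level was 2.35 CPM in s18928 with 5 cells at 0.0 CPM. In clade B, 5 of 10 cells had it, at 4786 CPM in s23552, 1861 in s23547, 1354 in s20565, 33.7 in s23567 and 20.2 in s23557. The other 5 clade B cells lay between 0.0 and 0.421 CPM. In clade C it was present in s23549 at 232 CPM and in s23558 at 24.3 CPM, and the other 8 cells were at or below 1.55 CPM. Among mature cells without an OR it was present in s23568 at 901 CPM, in s23556 at 523 CPM and in s23562 at 118 CPM. Of the immature cells, s23543 had 2297 CPM and s23573 had 38.7 CPM. By set, 11 of 33 ERCC cells and 1 of 14 Fluidigm cells had gclc. The latter was s20565, which is low in ompb and gng13b, so that in the Fluidigm set the clade B level rests on that cell. Without it, 4 of 9 clade B cells were above 100 counts and the clade B median went from 10.3 to 0.421 CPM.

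Both subunits of the enzyme were present together in 2 of the 47 cells. Of 15 cells with gclm and 12 cells with gclc, only s23549 and s23558 had both at 100 counts, which is 13.3% of the gclm cells and 16.7% of the gclc cells. Both are clade C cells and are the clade C cells with the highest gclm levels. The study marks s23558 as lacking a strongly predominant OR, with 2 OR transcripts at comparable levels. A further 22 cells had neither subunit at this level. The cells with 1 subunit therefore numbered 23, and in them the other subunit did not exceed 0.976 CPM. Over all 47 cells, gclm was present in 31.9% and gclc in 25.5%, and the correlation of their log2(CPM + 1) was -0.178. These numbers are too small to show that the subunits exclude each other. The study warns that transcripts often go undetected in a single cell, and the part of this was not tested. Cells with gclm had a median of 6828 detected genes and cells without it 6492, while the medians with and without gclc were 6501 and 6549, with ranges that overlapped.

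**Figure D2:**
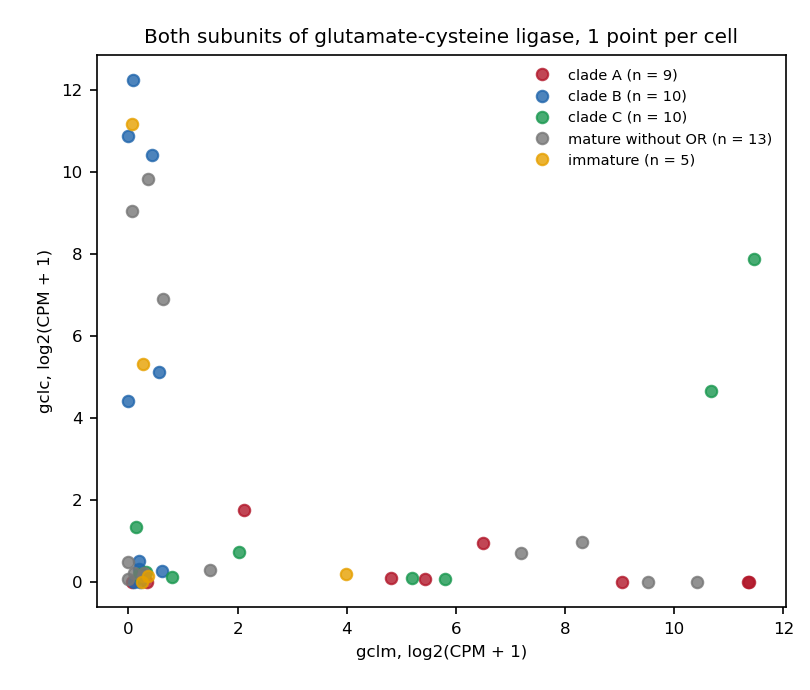
Level of gclc (vertical) against that of gclm (horizontal), both as log2(CPM + 1), with 1 point for each of 47 cells coloured by class. Most points lie along the axes, and only the clade C cells s23549 and s23558 have at least 100 counts of both genes, while s18928 of clade A has 3.35 CPM of gclm and 2.35 CPM of gclc.

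Glutathione reductase, gsr, was present in some cells of every class: clade A had 4 of 9, clade B 2 of 10, clade C 4 of 10, the mature cells without an OR 3 of 13 and the immature cells 1 of 5. The 3 highest levels were 2627 CPM in s23559 of clade C, 1888 CPM in s23575 without an OR and 1309.8 CPM in s23543, an immature cell. In clade A the highest level was 321 CPM in s23546, followed by 57.3 CPM in s23563, 40.7 CPM in s20545 and 4.94 CPM in s20566. In clade B it was 81.6 CPM in s23547 and 26.7 CPM in s20565, and the other 8 cells did not exceed 0.561 CPM. Without s20565, which is low in ompb and gng13b, 1 of 9 clade B cells had gsr. In the Fluidigm set 4 of 14 cells had gsr and none was above 40.7 CPM, while 10 of 33 ERCC cells had it. Of the 14 gsr cells 5 also had gclm and 5 also had gclc.

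The regulator nfe2l2a was broadly expressed. Clade A had it in 7 of 9 cells, with 0.718 CPM at the lowest, 912 CPM at the median and 2205 CPM at the highest. Clade B had it in 6 of 10 cells, with 0.507, 61.8 and 4551 CPM. Clade C had it in 8 of 10 cells, with 0.748, 907 and 3841 CPM. Each clade thus held cells at traces of nfe2l2a and cells with abundant nfe2l2a, and the clades overlapped almost completely. Among mature cells without an OR it was present in 11 of 13, with 0.311, 1035 and 4530 CPM. Immature cells had it in 3 of 5, with 0.495, 289 and 1249 CPM, and these classes overlapped the clades. The 3 cells low in ompb and gng13b had 1.05, 0.507 and 0.311 CPM. Without them 32 of 39 mature cells had nfe2l2a, compared with 32 of 42 with them, and the clade B median was 86.4 CPM.

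Over the 47 cells, the gene whose log2(CPM + 1) was most like that of nfe2l2a among 7886 genes was gng13b, the G protein gamma subunit of mature OSNs, with a Pearson correlation of 0.592. All points share their library with the other gene, so this is a description. When counts were scaled with size factors instead of totals, the correlation was 0.429. Of the 37 mature cells with at least 100 counts of gng13b, 32 had nfe2l2a, and of the 5 mature cells without it, 0 had nfe2l2a. These 5 cells include the 3 that are low in ompb and gng13b, and without them the numbers were 32 of 37 and 0 of 2. Over all 47 cells they were 33 of 38 and 2 of 9. The 2 were the immature cells s23543 and s23569, which had nfe2l2a but under 100 counts of gng13b. The summed level of the 6 mature OSN markers read here had a median of 5232 CPM (5.19 to 17761) in the 35 cells with nfe2l2a. It was 1431 CPM (1.62 to 8244) in the 12 cells without, which include the 3 cells low in ompb and gng13b. The sum includes gng13b, which was chosen by its likeness to nfe2l2a. Nothing is read from the sum or from the numbers of cells with gng13b. The 8 dissociation and stress genes summed to a median of 6261 CPM in the 35 cells with nfe2l2a, with a range from 813 to 20927 CPM. In the 12 cells without it the median was 13812 CPM, with a range from 325 to 21308 CPM. These 12 include s18930, s20565 and s20534, low in ompb and gng13b, with sums of 18956, 16008 and 15274 CPM. The part of these genes in the levels of nfe2l2a was not tested. On the current zebrafish assembly nfe2l2a overlaps hnrnpa3, and whether counting used strand is not given in the sources used here. Of the 35 cells with nfe2l2a, 27 had under 100 counts of hnrnpa3, and 18 had 0.

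The Keap1 genes were rare beside nfe2l2a. In clade A, 0 of 9 cells had keap1a and 0 of 9 had keap1b, with highest levels of 0.0529 and 0.0767 CPM. In clade B, keap1a was present in s23567 at 332 CPM and in s23557 at 238 CPM, and keap1b in s23552 at 26.6 CPM. In clade C, keap1a was present in s18931 at 46.0 CPM and in s23572 at 35.5 CPM, while keap1b was present in s23559 at 883 CPM, in s23549 at 247 CPM and in s20595 at 113 CPM. Among mature cells without an OR, 5 of 13 had keap1b, between 47.5 and 419 CPM, and s23561 was the only such cell with keap1a. Of the immature cells 2 of 5 had keap1b, at 6.83 and 6.12 CPM, and 0 of 5 had keap1a. Only s23561 held both copies at 100 counts. By set, keap1b was present in 10 of 33 ERCC cells and 1 of 14 Fluidigm cells, and keap1a in 4 and 1. Of the 9 clade A cells 5 were in the Fluidigm set, and the part of the set in these numbers was not tested. Of the 11 cells with keap1b 10 had nfe2l2a, as had 4 of the 5 cells with keap1a.

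**Figure D3:**
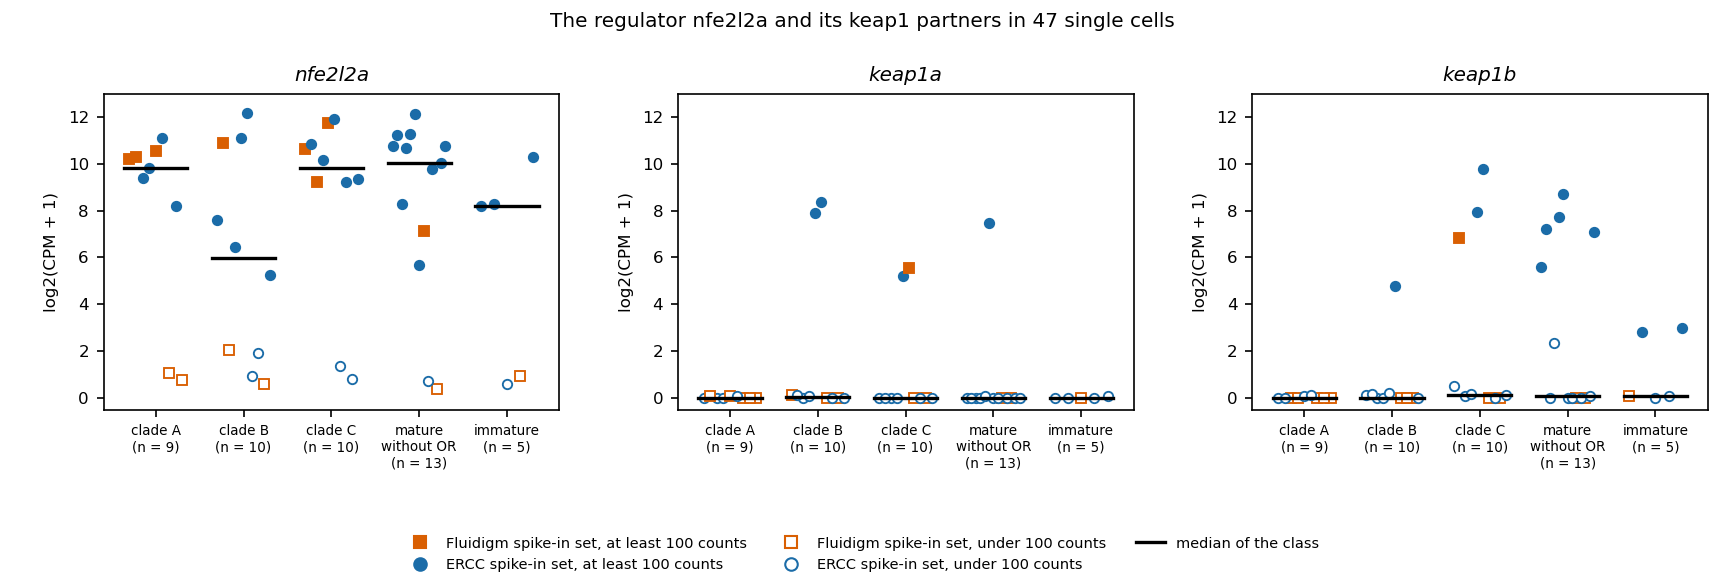
Levels of nfe2l2a, keap1a and keap1b as log2(CPM + 1) in 47 cells (points) by class; squares are cells of the Fluidigm set, circles cells of the ERCC set, filled points had at least 100 counts and bars are class medians. Filled points of nfe2l2a fill every class, 35 of 47 cells, while keap1a and keap1b have 5 and 11 and none in clade A.

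Peroxiredoxin 1 was absent or at traces from all but 3 cells and was extremely abundant in 2 of them. It had 27020 CPM in s23556, a mature cell without an OR, and 13265 CPM in s23573, an immature cell, and in both it was the most abundant gene of the library. The third cell was s23547 of clade B with 52.0 CPM. The remaining 44 cells did not exceed 7.34 CPM. All 14 Fluidigm cells were at or below 0.0346 CPM, whereas the ERCC cells had a median of 0.582 CPM, and 18 of them had at least 10 counts. The cell s23556 held 68.0% of all prdx1 counts of the table. Traces of prdx1 were thus almost confined to the set that held the cells with abundant prdx1, and the part of a shared run in these traces was not tested. Both cells with abundant prdx1 also had gnaia, a G protein alpha subunit of microvillous olfactory neurons, at 728 CPM in s23556 and 982 CPM in s23573. The other microvillous markers, trpc2b and tmem176l.4, were at 0 in both. The cell with the highest gnaia level, 1240 CPM in s23544, had 0.878 CPM of prdx1. All 3 cells with prdx1 also had gclc, nfe2l2a and txn at 100 counts, and 0 of 3 had gclm. On the current assembly prdx1 overlaps fzr1b, which was at 0 counts in 2 of the 3 cells.

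Thioredoxin, txn, was the most widely detected of the 8 genes. Clade A had it in 6 of 9 cells, with 1.71 CPM at the lowest, 351 CPM at the median and 1793 CPM at the highest. Clade B had it in 8 of 10 cells, with 0.467, 225 and 1246 CPM. Clade C had it in 9 of 10 cells, with 8.20, 791 and 1564 CPM. The clades overlapped, and the order of their medians was not separated from the spread between cells. Mature cells without an OR had it in 12 of 13, with 0.207, 591 and 11744 CPM, and immature cells in 4 of 5, with 0.690, 659 and 1127 CPM. The highest level was in s23556, the cell with the most prdx1, where txn was second in abundance. In the other cell with abundant prdx1, s23573, txn had 868 CPM. Of the 39 cells with txn, 32 also had nfe2l2a. All 11 cells with keap1b had txn. The name txn in the tables is a synonym of the gene now called txnb, and the gene now called txna is a separate row, zgc:56493, which was present in 26 cells, of which clade A held 8, clade B 4 and clade C 7.

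**Figure D4:**
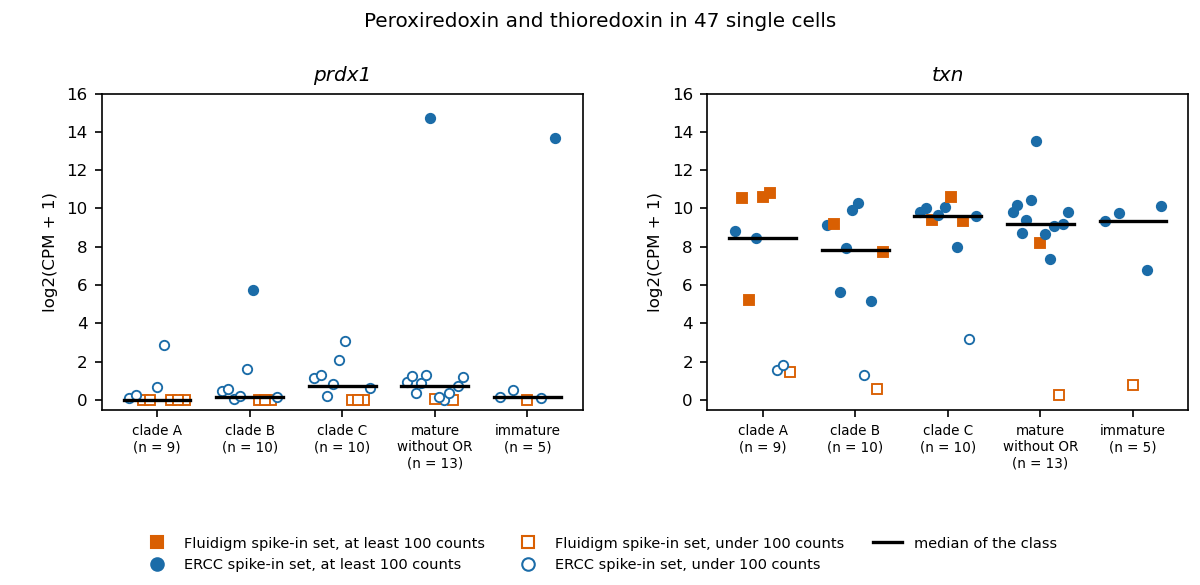
Levels of prdx1 and txn as log2(CPM + 1) in 47 cells (points) by class; squares are cells of the Fluidigm set, circles cells of the ERCC set, filled points had at least 100 counts and bars are class medians. For prdx1 the cells s23556 with 27020 CPM and s23573 with 13265 CPM stand far above the other 45, while txn had at least 100 counts in 39 of 47 cells.

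All 8 genes were detected in the 3 bulk libraries of CZ-projecting neurons. The modifier subunit gclm had 113.9, 75.5 and 131 CPM, a mean of 107 ± 28.3 CPM (SD, n = 3), so that the libraries differed by at most 1.73-fold. The catalytic subunit gclc had 4.90, 124 and 79.1 CPM, a mean of 69.3 ± 60.1 CPM, and library 1 held 13 counts. Without library 1 the mean was 102 CPM. In bulk, fewer cells of a type and less RNA per cell cannot be told apart. Both subunits were thus present in pools of neurons selected with a clade A receptor transgene, whereas gclc did not exceed 2.35 CPM in any single clade A cell. Library 1 was the shallowest, with 2651985 counts and 11377 detected genes, beside 16881 and 18457 genes in libraries 2 and 3. The pools also held markers of immature OSNs, with gng8 and gap43 summing to 46.4, 331 and 355 CPM in the 3 libraries. Library 3 held globin genes at 8238 CPM, beside 45.2 and 9.44 CPM in libraries 1 and 2, and macrophage markers at 295 CPM, beside 0.754 and 19.04 CPM. Library 2 was highest in the microvillous sum, at 489 CPM beside 175 and 194 CPM in libraries 1 and 3, and in the epithelial sum, at 6698 CPM beside 3098 and 3209.9 CPM. The part of these cells and of depth in the bulk levels of the 8 genes was not tested.

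Of the remaining genes, gsr had 308, 136 and 132 CPM in bulk, and nfe2l2a had 536, 511 and 1142 CPM. The level of keap1a was 0.754, 25.8 and 26.3 CPM, the first value being 2 counts, and that of keap1b was 19.2, 16.96 and 21.2 CPM, which at 1.25-fold differed least between libraries of the 8 genes. Both copies were thus at low levels in pools, where each library was made from many cells. For prdx1 the levels were 109, 570 and 198 CPM, and for txn 2517, 2150 and 1124 CPM. With 3 libraries, an order shared by a gene and a marker sum is not read as a relation. In bulk prdx1 was therefore present in each library, although in single cells it was present in 3 of 47. The bulk libraries and the cells were sorted and prepared separately, so no test was made between them.

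**Figure D5:**
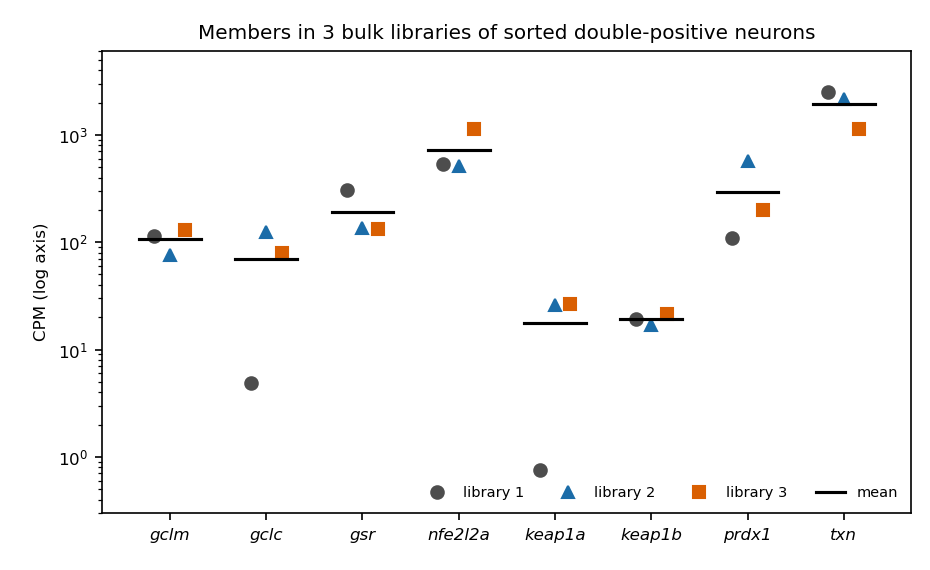
Level of each of the 8 genes in CPM (logarithmic axis) in the 3 bulk libraries (symbols), with the mean as a bar. Library 1, which has the fewest counts, lies far below the others for gclc (4.90 CPM) and keap1a (0.754 CPM), while keap1b differs by only 1.25-fold between libraries.

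To compare classes, the counts of the cells of each clade were summed within each spike-in set, and edgeR's quasi-likelihood test was run on the 6 sums. It covered the 5623 genes present in 3 or more of the 29 cells with an OR. The gene prdx1 did not pass this filter, so 7 of the 8 members were in the fit. For clade A against B and C, the comparison by which gclm was chosen, 0.0178% or 1 gene passed an adjusted p of 0.05, which is given as background with nothing read from it for the members. Between clade B and clades A and C, again 0.0178% or 1 gene passed, and 0 of the 6 members other than gclm. The largest difference among these 6 was that of gclc, a log2 fold change of 8.37 ± 2.70 (SE, 2 sums per clade), with a Benjamini-Hochberg adjusted p of 0.542 by edgeR. Of the 7 cells with an OR that had gclc, 5 were in clade B and 2 in clade C. It thus passed the filter only through clade B, where it was high, and its value is a description. The level was higher in clade B in both sets, by 8.33 in the Fluidigm sums and by 7.55 in the ERCC sums on the log2(CPM + 1) scale. In the Fluidigm set it rests on s20565. The median log2 fold change of these 6 genes was 0.49, beside 0.26 over all 5623 genes. It includes gclc and keap1a, so nothing is read from it. The others had -2.85 for gsr, -0.87 for txn, -0.07 for nfe2l2a, 1.05 for keap1b and 5.99 for keap1a. Of the 4 cells with an OR that had keap1a, 2 were in clade B and 2 in clade C. Thus keap1a also passed the filter only with clade B, and its value is a description.

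Between clade C and clades A and B, 0.0178% or 1 gene passed and 0 of the 6 members other than gclm. All 6 had log2 fold changes above 0, with a median of 2.07 beside 0.33 over all genes. They include keap1a and keap1b, so nothing is read from the shared sign or the median. Of the 4 cells with an OR that had keap1a, 2 were in clade C. Thus keap1a passed the filter only with that clade, and its value of 4.12 is a description. Without s23559 the value of gsr went from 3.14 to -0.78, and without s23549 that of gclc went from 0.20 to -3.15. The largest fold change was that of keap1b at 9.17 ± 4.43 (SE, 2 sums per clade), with an adjusted p of 0.738 by edgeR. Of the 4 cells with an OR that had keap1b, 3 were in clade C. It thus passed the filter only through that clade, and its value is a description. The levels behind this fold change were 198 and 25.3 CPM in the clade C sums, 5.39 and 0.0 CPM in those of clade B and 0.0300 and 0.0 CPM in those of clade A, each time for the ERCC set and then the Fluidigm set. For nfe2l2a the log2 fold changes were -0.07 ± 1.22 for clade B and 0.78 ± 1.18 for clade C (SE), and both lay within their standard error of 0. The spread between sums was large for all genes, with a common dispersion of 3.56. DESeq2's Wald test on the same sums called 982 genes or 17.5% for clade B, among them gclc, and 935 or 16.6% for clade C, among them keap1b, whereas limma-voom called 2 genes in each comparison and 0 of the members. Nothing is read from the calls of gclc and keap1b, which passed the filter through the clade compared.

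For maturity, sums of immature cells, of mature cells without an OR and of mature cells with an OR were compared over 7886 genes, and all 8 members passed the filter. Between immature cells and mature cells with an OR, edgeR called 0 genes or 0% at an adjusted p of 0.05, with 173 genes at an unadjusted p under 0.05, while DESeq2 called 1273 or 16.1%, among them keap1a and prdx1, and limma-voom 0. Nothing is read from these calls of keap1a and prdx1. Of the cells compared, keap1a was present in 4 with an OR and 0 immature ones, so it passed the filter through the former. The filter admitted prdx1 with 3 cells, 1 of them immature. The adjusted p of the 7 members other than gclm ranged from 0.618 to 0.994 by edgeR. Their median log2 fold change was -0.88, beside -1.65 over all genes, and 3 of 7 were above 0. The 7 include keap1a and prdx1, so nothing is read from their median. With DESeq2 size factors in place of TMM the median of all genes was -0.10, so fold changes here are read only beside that median. The level of prdx1 differed by 9.86 ± 3.93 (SE, 2 sums per class), with an adjusted p of 0.618, but without the cell s23573 the log2 fold change was -3.82, so that its direction came from that cell. The gclm level of immature cells was 4.85 CPM in the ERCC sum and 0.287 CPM in the Fluidigm sum, which is 1 cell, while mature cells with an OR had 482 and 337 CPM. Mature cells with an OR include the clade A cells by which gclm was chosen, so these levels are given without a test.

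Between mature cells without and with an OR, edgeR also called 0 genes or 0%, with 80 at an unadjusted p under 0.05, DESeq2 called 539 or 6.97%, with 0 of the members, and limma-voom 0. By edgeR 0 of the 7 members other than gclm passed. Their median log2 fold change was 0.02, beside -0.55 over all genes. It again includes keap1a and prdx1, and nothing is read from it. Apart from prdx1, at 9.57 ± 3.89 (SE) with the cell s23556 and at -2.35 without it, the log2 fold changes lay between -1.85 for gclc and 0.68 for txn. The cell s23556 held 67.6% of the txn counts of mature cells without an OR, and without it the value for txn was -0.54. The gclm levels were 161 CPM in the ERCC sum and 249 CPM in the Fluidigm sum of cells without an OR, compared with 482 and 337 CPM in those with an OR. They are again given without a test.

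Markers of stress and of other cells were read beside gclm. In clade A the 8 dissociation and stress genes had a median sum of 14095 CPM (4995 to 20927). The sum was 6723 CPM (2765 to 16008) for clade B and 5373 CPM (325 to 17782) for clade C. By set, clade A had 14095 to 20927 CPM in its 5 Fluidigm cells and 4995 to 5928 CPM in its 4 ERCC cells. Fluidigm cells had 3919 to 16008 CPM in clade B and 3502 to 12525 CPM in clade C. ERCC cells had 2765 to 8751 CPM in clade B and 325 to 17782 CPM in clade C. The part of the set in these sums was not tested. The chaperone gene hspa8 was present in all 29 cells and the immediate early gene jun in 7 of 9, 8 of 10 and 8 of 10 cells of clades A, B and C. In the same order fosab was present in 7, 3 and 6 cells, hspa5 in 6, 5 and 1, ddit3 in 5, 4 and 6, fosb in 1, 0 and 2 and egr1 in 1, 0 and 0. The transcription factor atf3, which the study itself places among its clade A genes, was present in 7, 1 and 1. Among the 29 cells with an OR, this sum had a median of 5700 CPM in the 10 cells with gclm and of 7185 CPM in the 19 cells without, with ranges that overlapped. For the 5 epithelial markers the median sum was 2779 CPM (15.5 to 6508) in clade A, 557 CPM (25.7 to 10418) in clade B and 2723 CPM (5.47 to 6690) in clade C. These sums came mainly from the adhesion genes epcam and cdh1, while the keratin krt5 was at 0 in all cells of clades B and C, krt4 was present in 2 clade A cells and no cell of clades B and C, and krt8 in 1 cell of each clade. The part of these genes in the level of gclm was not tested.

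A list of 84 further genes of the pathway was read in the same way. Of these, 77 were in the tables, and 46 of them, or 59.7%, reached 100 counts in at least 3 cells, compared with 27.2% of all 29033 genes. Among regulators, the autophagy receptor sqstm1 was present in 43 cells, the small Maf factor maff in 31 and the ubiquitin ligase component rbx1 in 23, while the second zebrafish Nrf2 gene, nfe2l2b, was present in 0. Among genes of glutathione synthesis and supply, the glutathione-degrading enzyme chac1 and the amino acid transporter subunit slc3a2b were each present in 24 cells and the efflux pump abcc1 in 16. Glutathione synthase, gss, the enzyme that follows glutamate-cysteine ligase, was present in 5 cells. Of the genes that use glutathione, the transferase gstp1 was present in 45 cells with up to 16438 CPM, the peroxidase gpx4b in 24 and the hydrolase hagh in 19.

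In the thioredoxin and peroxiredoxin system, prdx5 was present in 32 cells, the thioredoxin inhibitor txnipa in 23 and prdx2 in 17. The quinone reductase nqo1, a widely used target gene of Nrf2, was present in 31 cells: 6 in clade A, 8 in each of clades B and C, 8 mature ones without an OR and 1 immature. The ferritin subunit fth1a was present in 27 cells and the biliverdin reductase blvrb in 12, while the haem oxygenase hmox1a was present in 0. For NADPH supply, idh1 was present in 19 cells and tktb in 10. By edgeR 0 of the 36 list genes tested passed in any clade comparison and 0 of the 46 tested passed in either maturity comparison, and limma-voom gave the same numbers. The smallest adjusted p over the list was 0.727 between clade B and the other clades, 0.738 for clade C, 0.618 for immature cells and 1 for cells without an OR. DESeq2 called 3 of the 36 list genes for clade B and 5 for clade C, beside 17.5% and 16.6% of all genes tested, and 6 of the 46 for immature cells and 2 for cells without an OR, beside 16.1% and 6.97%. The median log2 fold change of the list was 0.75 in the clade B and 0.02 in the clade C comparison, beside 0.26 and 0.33 over all genes.

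The genes most like gclm over the 47 cells by the correlation of log2(CPM + 1) were pih1d2 (0.596), mtmr3 (0.582), fbxw8 (0.576), cfap36 (0.561) and si:ch211-269e2.1 (0.560). Of the 8 cells with pih1d2 at 100 counts 7 had gclm, and all 6 cells with mtmr3 and all 6 with cfap36 had it. None of these 5 genes is another member. The gene most like gclc was pdcd4a (0.711), for gsr it was tpd52l2b (0.607), for keap1a mark4a (0.632), for keap1b si:ch211-198p11.6 (0.626), for txn vsig8a (0.603) and for prdx1 slco5a1 (0.918). The last was present in the same 3 cells as prdx1. These are the highest of 7886 correlations for each gene, and the points share library and depth.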

How the data were processed

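Reads of 47 single cells and 3 bulk libraries were processed by the authors, who trimmed them and used STAR with the GRCz10 build. Genes were counted with VERSE per the methods and with HTSeq per the labels. The deposited values are raw counts per gene, without normalization. Whether the bulk libraries were amplified as in the labels or by the T7 method of the text could not be settled. Unused sample columns numbered 0.

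Counts were scaled to each total (CPM). Cell classes were rebuilt from marker genes: an OR at 10 CPM or more gave the clade (subfamilies 101 to 114 A, 115 to 128 B, 129 to 137 C). For tests, counts were summed per class and spike-in set. The quasi-likelihood test of edgeR 4.0.16 (R 4.3.3) used TMM factors, p-values were adjusted by Benjamini-Hochberg over all genes tested, and a standard error is the fold change over the root of F. DESeq2 1.42.0 and limma 3.58.1 were alternatives. The fit was also run on simulated sums with planted changes. How many it recovered is not reported here, so a lack of calls is not read as a lack of difference. Whether sums of the same set deviate together was checked: deviations from the class mean had correlations of 0.0779 to 0.111 for clades and 0.117 to 0.233 for maturity classes. P-values measure the spread between the 2 sums of a class, which come from different spike-in sets. If each set is a run, sums of different classes within it share embryos and sort.

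Gene names were matched to a RefSeq table of another assembly, 7 by symbol and txn by synonym, and no coordinates were used. The members and gene lists were chosen with earlier results of these data known. Pathway genes named are the 3 present in most cells in each role, and a few others (nfe2l2b, hmox1a, gss) named after their values were seen. A further gene that the rule names is not reported here. No doublet caller was used, and wells had been inspected by eye for single cells, per the methods. The study excluded some cells as likely clumps that this inspection had missed.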

Additional observations from a re-analysis of the deposited data

Results flagged for a closer look

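Within clades A, B and C and the immature class, the highest and lowest cell of each of the 8 genes was compared with its nearest neighbour on the log2(CPM + 1) scale by Dixon's 95% criterion. Of 32 gene and class combinations, 9 had a cell that stood apart, or 28.1%, where chance flags about 1 in 20 groups of normally distributed values. Levels close to all-or-none are not of that kind.

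In clade A the cell was s23554 for prdx1, with 6.29 CPM beside 0.582 CPM in the next cell. In clade B it was s23552 for keap1b, with 26.6 CPM beside 0.149 CPM, and s23547 for prdx1, with 52.0 CPM beside 2.09 CPM. In clade C it was s23559 for gsr, with 2627 CPM beside 34.8 CPM, and s23560 for txn, which was lowest with 8.20 CPM beside 254 CPM. Among immature cells it was s23545 for gclm, with 14.8 CPM beside 0.287 CPM, s23543 for gsr, with 1309.8 CPM beside 0.0506 CPM, s23573 for prdx1, with 13265 CPM beside 0.443 CPM, and s23543 for keap1a, where 0.0506 CPM is a single count beside 0.0 CPM in the other cells.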

How the results depend on the processing

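The numbers of genes called between clades depended on the test. In the order clade A, clade B and clade C, each against the other clades, DESeq2's Wald test called 800, 982 and 935 genes instead of 1, 1 and 1, limma-voom 3, 2 and 2, edgeR with 10 counts in 3 cells as the filter 4, 8 and 5, and edgeR without a filter 2, 3 and 5. With DESeq2 size factors in edgeR the numbers were 0, 0 and 1. For immature cells and for mature cells without an OR DESeq2 called 1273 and 539 genes instead of 0 and 0. Leaving out 1 sum or 1 cell gave 0 to 1, 0 to 10 and 0 to 5 genes for the clades and 0 to 1 for both maturity comparisons. The highest numbers came without s20556 of clade B, without s18931 of clade C, without the ERCC sum of immature cells and, for mature cells without an OR, without s20535. With the spike-in set as a replicate block the numbers were 1, 1, 1, 0 and 0, so that the block changed no call.

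Outside the clade A comparison, no member other than gclm was called in any alternative except by DESeq2. Of 37 fold changes of members, 19 changed sign under at least 1 alternative, 16 of them when a single cell was left out. The 37 include those of gclm and of the clade A comparison, which are a description. The count of those that kept their sign is therefore not read as stability of a result. For prdx1 leaving out 1 sum or cell moved the log2 fold change between -11.17 and 20.47 for immature cells and between -5.35 and 20.17 for mature cells without an OR. The values near 20 are against a sum of 0 counts and are no measure of size. Scaling with size factors moved the median fold change of all genes in the clade comparisons from 0.33, 0.26 and 0.33 to 0.02, 0.48 and 0.46 on the log2 scale, and in the maturity comparisons from -1.65 and -0.55 to -0.10 and 0.56. On the cells, size factors put medians on another scale: txn went from 791 to 308 CPM in clade C and from 351 to 155 CPM in clade A. The median of nfe2l2a went from 912 to 376 CPM in clade A and from 907 to 381 CPM in clade C. That of gclm in clade A went from 42.4 to 15.3 CPM. The medians of txn and nfe2l2a thus fell together in these clades. With 10 counts in place of 100, prdx1 was present in 18 cells instead of 3. A minimum of 5 CPM for immature cells moved 1 cell, s23564, and one of 50 CPM moved 0. Leaving out the 3 cells low in ompb and gng13b, an alternative chosen after seeing the data, changed no call.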
